A study of Glycine max with 10 samples.

Results

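Phytochromes are the red and far-red light receptors of plants, and 8 soybean phytochrome genes were followed through germination here. They were taken by gene identifier, with no threshold on their values, and comprise 4 PHYA genes (Glyma10g28170, Glyma20g22160, Glyma19g41210 and Glyma03g38620), 2 PHYB genes (Glyma09g03990 and Glyma15g14980) and 2 PHYE genes (Glyma09g11600 and Glyma15g23400). All 8 identifiers were found among the 54154 genes with values, and all 8 reached 1 FPKM at some time point, the limit for an expressed gene, which 33358 genes passed. FPKM counts fragments scaled to transcript length and to the mapped reads of the library, so levels of different genes can be set side by side.

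RNA came from embryonic axes of soybean cultivar BRS 284, the part of the seed that becomes root and shoot, separated from the cotyledons. Axes were taken from dry seeds and from seeds that had taken up water for 3, 6, 12 or 24 hours (written 3-HAI and so on, for hours after imbibition) on wet cotton at 28 °C with 12 hours of light and 12 hours of dark per day. Each of the 5 time points had 2 biological replicates of pooled seeds, 10 libraries in all, and the authors give 1 FPKM per gene and time point made from both. No value therefore has a replicate spread, no difference between time points or genes could be set against one, and no p-value is given. At what hour of the light cycle seeds were sown or collected is not given in the sources used here, so hours since imbibition and the light or dark phase cannot be told apart. The alleles that BRS 284 carries at maturity loci are likewise not given there.

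A phytochrome carries a bilin pigment and switches between a red-absorbing form, in which it is made, and a far-red-absorbing active form that moves to the nucleus and acts on phytochrome-interacting factors. In Arabidopsis seeds phyB is the stored receptor behind the classical red and far-red reversible control of germination, phyA builds up during imbibition in the dark and senses very weak light, and phyE has a part in germination under far-red light. PHYA transcription in light-grown seedlings is turned down by light, and phyA protein is destroyed in light, whereas phyB and phyE proteins are more stable. In soybean the PHYA genes at maturity loci E3 and E4 delay flowering under long days.

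The identifiers of the genome version used by the authors matched 0 of the entries in the RefSeq gene table, so the types are those under which the genes were listed. RefSeq places a gene named E4, with the synonym PHYA2, on chromosome 20, one named PHYA3 on chromosome 19, one named PHYA with the synonym PhyA1 on chromosome 10 and one named PHYB on chromosome 9. Glyma20g22160 and Glyma19g41210 are the only genes of the 8 on chromosomes 20 and 19 and are matched to E4 and PHYA3 on that basis. This is a match by type and chromosome and not by identifier. None of these RefSeq entries carries the name E3, so calling Glyma19g41210 the E3 gene rests on general knowledge of PHYA3. No sequences are shown.

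In version 1.1 of the genome, with positions as the authors give them, the E4 gene Glyma20g22160 lies on chromosome 20 from 32087412 to 32093306 and Glyma10g28170 on chromosome 10 from 36962521 to 36968813. The E3 gene Glyma19g41210 lies on chromosome 19 from 47511095 to 47520052 and Glyma03g38620 on chromosome 3 from 44925730 to 44930360. All 4 PHYA genes are on the plus strand. The PHYB genes are on the minus strand, Glyma09g03990 on chromosome 9 from 2919887 to 2926740 and Glyma15g14980 on chromosome 15 from 11415495 to 11422656. The PHYE genes are on the plus strand of the same chromosomes, Glyma09g11600 on chromosome 9 from 11733417 to 11739940 and Glyma15g23400 on chromosome 15 from 22625842 to 22632032. The models span 4631 bp in Glyma03g38620 to 8958 bp in Glyma19g41210. None of them overlaps another gene model of the table (0 overlaps), and the nearest neighbour is 1673 bp away, downstream of Glyma10g28170. No other gene (0 for each member) has the same 5 values as any of the 8, so each profile is listed for 1 gene. Reads that fit closely related duplicates equally well could still have been shared between them, and values of such duplicates are uncertain to that extent.

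That the samples were germinating seed tissue was looked at through the ABI3 genes, regulators of seed maturation. Glyma08g47240 had 2.70 FPKM at 24-HAI, against 62.1 FPKM in dry seeds, and Glyma18g38490 had 7.11 FPKM at 24-HAI, against 78.8 FPKM in dry seeds. In between, Glyma08g47240 had 54.1 (3-HAI), 50.9 (6-HAI) and 26.3 FPKM (12-HAI), and Glyma18g38490 had 143, 126 and 65.9 FPKM. The low level at 24-HAI is also reported by the study from these same data. It is therefore no independent check and does not speak for the earlier time points. Defining markers of single cell types were not used, as the samples are whole axes, and in such samples fewer cells of a type and less RNA per cell cannot be told apart.

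Phytochrome RNA in the axes was mostly PHYA RNA, and more so after imbibition. The summed level of the 4 PHYA genes was 42.3 FPKM (dry), 130 (3-HAI), 186 (6-HAI), 256 (12-HAI) and 195 FPKM (24-HAI). The 2 PHYB genes together had 21.2, 22.7, 17.1, 18.2 and 11.5 FPKM at the same time points, and the 2 PHYE genes had 2.63, 3.73, 3.01, 5.75 and 10.1 FPKM. PHYA genes thus made up between 83.1% and 91.5% of the summed phytochrome FPKM at the 4 imbibed time points, against 64.0% in dry seeds.

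The types followed different courses over the day. Summed PHYA was 6.05 times as high at 12-HAI as in dry seeds, summed PHYB was lowest at 24-HAI with 0.542 of the dry level, and summed PHYE was highest at 24-HAI with 3.82 times the dry level. With all time points set to equal totals these ratios were 11.5 for PHYA, 0.939 for PHYB and 6.62 for PHYE, and after quantile normalization the ratio for PHYE was 2.07. The ratio of summed PHYA to summed PHYB was 2.00 (dry), 5.73 (3-HAI), 10.9 (6-HAI), 14.1 (12-HAI) and 17.0 (24-HAI). The ratio of PHYB to PHYE went the other way, with 8.05 (dry), 6.09 (3-HAI), 5.66 (6-HAI), 3.16 (12-HAI) and 1.14 (24-HAI), so PHYB and PHYE were close to each other only at the end. Both ratios are taken within a time point and do not depend on how time points are scaled to each other by a common factor.

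**Figure D1:**
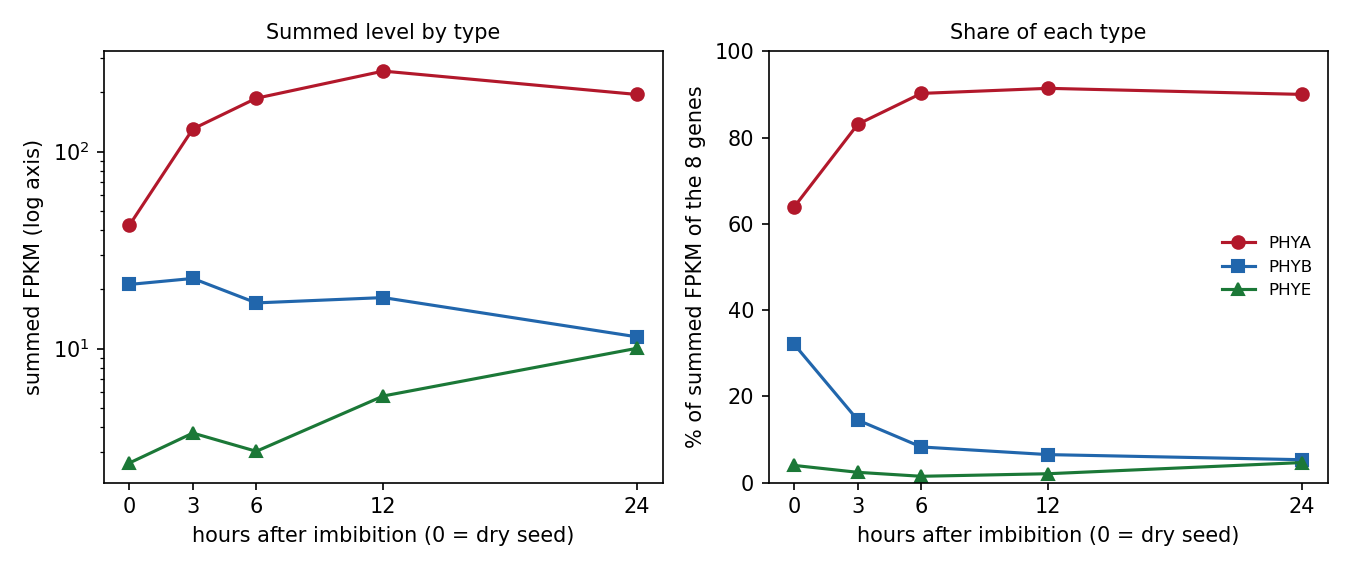
Summed FPKM of the PHYA (4 genes), PHYB (2 genes) and PHYE (2 genes) types against hours after imbibition, on a log axis (left), and each type as a percentage of the summed FPKM of the 8 genes (right). Each point is the sum of the authors' values at 1 time point, with no error. PHYA stands above the other types throughout, with 256 FPKM at 12-HAI, and PHYB and PHYE meet near 11.5 and 10.1 FPKM at 24-HAI.

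Most of the PHYA level came from the genes on chromosomes 20 and 10, which made up 90.9% (dry), 83.8% (3-HAI), 93.1% (6-HAI), 96.4% (12-HAI) and 98.5% (24-HAI) of summed PHYA FPKM. Glyma20g22160, the E4 gene, had 13.7 FPKM (dry), 74.1 (3-HAI), 118 (6-HAI), 169 (12-HAI) and 138 FPKM (24-HAI). Its value was 5.41 times the dry one at 3-HAI and 12.4 times at 12-HAI. Glyma10g28170 had 24.7 FPKM (dry), 35.0 (3-HAI), 55.3 (6-HAI), 77.3 (12-HAI) and 53.5 FPKM (24-HAI), with steps of 1.42, 1.58 and 1.40 times to a 12-HAI value 3.12 times that in dry seeds.

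Both genes were thus highest at 12-HAI and lowest in dry seeds, but the E4 gene made the larger step at once. In dry seeds Glyma20g22160 was the lower of the pair, at 0.554 of the level of Glyma10g28170, while at 3-HAI it was 2.11 times as high. The ratio then stayed near that value, with 2.14 at 6-HAI, 2.19 at 12-HAI and 2.59 at 24-HAI. Among expressed genes, Glyma20g22160 exceeded 70.8% in dry seeds, 93.7% at 3-HAI and 99.1% at 12-HAI. The corresponding shares for Glyma10g28170 were 80.6%, 85.3% and 96.9%.

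The genes within a type were paired by the duplicates known for soybean, the chromosome 20 with the chromosome 10 PHYA gene and the chromosome 19 with the chromosome 3 PHYA gene. The other PHYA genes had an early and short maximum. Glyma19g41210, the E3 gene, had 3.57 FPKM (dry), 18.8 (3-HAI), 11.4 (6-HAI), 8.02 (12-HAI) and 1.92 FPKM (24-HAI). The 3-HAI level was 5.26 times the dry level, nearly the same ratio as for the E4 gene, and it was 9.80 times that at 24-HAI. Glyma03g38620 was low throughout, with 0.281 FPKM (dry), 2.34 (3-HAI), 1.49 (6-HAI), 1.32 (12-HAI) and 0.951 FPKM (24-HAI). It was above the limit for an expressed gene at the 3 middle time points, and its ratio of 8.35 between 3-HAI and dry seeds rests on a dry value under 1 FPKM.

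The E3 gene and Glyma03g38620 both peaked at 3-HAI and declined at each later time point. The ratio of Glyma19g41210 to Glyma03g38620 was 12.7 (dry), 8.02 (3-HAI), 7.61 (6-HAI), 6.08 (12-HAI) and 2.02 (24-HAI). The level of E4 relative to E3 was 3.83 in dry seeds and 3.94 at 3-HAI, and then widened to 10.4 at 6-HAI, 21.1 at 12-HAI and 72.2 at 24-HAI. The E3 gene exceeded 18.0% of expressed genes at 24-HAI, against 74.4% at 3-HAI.

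**Figure D2:**
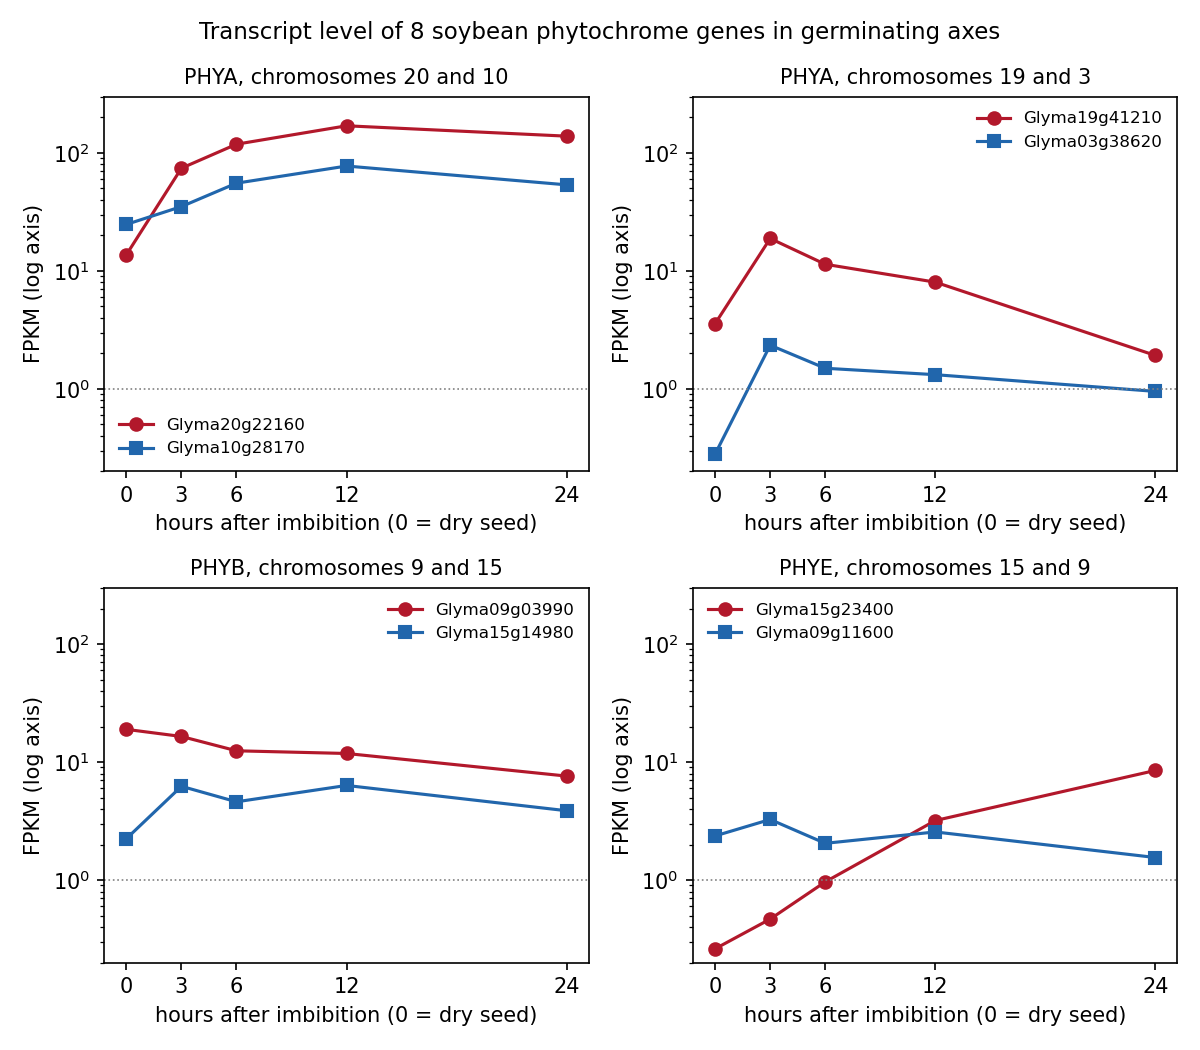
FPKM of the 8 phytochrome genes on a log axis against hours after imbibition, with 1 panel for each pair of genes of the same type. Points are the authors' single values per time point, with no error, and the dotted line marks 1 FPKM. Glyma20g22160 and Glyma10g28170 peak at 12-HAI, Glyma19g41210 and Glyma03g38620 at 3-HAI, and Glyma15g23400 is higher at each time point than at the one before, up to 8.50 FPKM.

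The PHYB genes started far apart and came closer. Glyma09g03990 was the second most abundant phytochrome transcript of dry seeds, with 18.9 FPKM, followed by 16.5 (3-HAI), 12.5 (6-HAI), 11.8 (12-HAI) and 7.61 FPKM (24-HAI). Its value declined at every step, and the 24-HAI value was 0.402 of the dry one, just past the limit for a change (2.4 times) used for the counts. Glyma15g14980 had 2.25 FPKM (dry), 6.23 (3-HAI), 4.61 (6-HAI), 6.34 (12-HAI) and 3.87 FPKM (24-HAI).

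Glyma15g14980 was thus 2.78 times as high at 3-HAI as in dry seeds, an interval in which Glyma09g03990 stood at 0.871 of its dry value. The ratio of Glyma09g03990 to Glyma15g14980 was 8.43 (dry), 2.64 (3-HAI), 2.70 (6-HAI), 1.87 (12-HAI) and 1.97 (24-HAI). Glyma09g03990 was the higher of the pair at all 5 time points.

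The PHYE genes exchanged places. Glyma15g23400 had 0.262 FPKM (dry), 0.468 (3-HAI), 0.966 (6-HAI), 3.20 (12-HAI) and 8.50 FPKM (24-HAI), which made it the only one of the 8 genes with its maximum at 24-HAI. Among expressed genes a maximum at 24-HAI was the most common, with 41.5%. The shares were 23.6% for dry seeds, 20.1% for 3-HAI, 6.33% for 6-HAI and 8.50% for 12-HAI. The 24-HAI level of Glyma15g23400 exceeded its dry level 32.5-fold, a ratio on a starting value under 1 FPKM. Glyma09g11600 had the smallest ratio of highest to lowest value of the 8 as deposited and passed the limit for a change in no interval, with 2.37 FPKM (dry), 3.26 (3-HAI), 2.05 (6-HAI), 2.56 (12-HAI) and 1.55 FPKM (24-HAI). Under each of the 3 other scalings another member, Glyma15g14980 or Glyma09g03990, varied less, and after quantile normalization Glyma09g11600 passed the limit downwards both from 12-HAI to 24-HAI and from dry seeds to 24-HAI.

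Glyma15g23400 was at 0.111 of the level of Glyma09g11600 in dry seeds, 0.143 at 3-HAI and 0.471 at 6-HAI. It was the higher of the pair by 1.25 times at 12-HAI and by 5.47 times at 24-HAI. At 24-HAI it also exceeded Glyma09g03990, with 8.50 FPKM against 7.61 FPKM, a small difference for which no spread is known, and was then the third most abundant of the 8 transcripts.

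**Figure D3:**
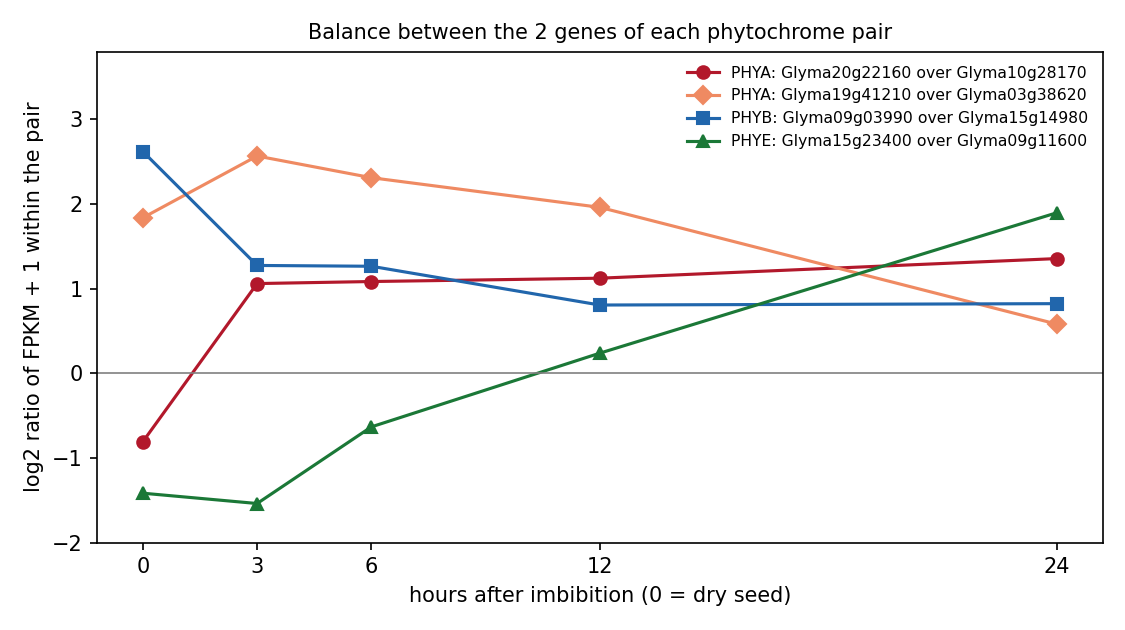
Log2 ratio of FPKM + 1 between the 2 genes of each pair against hours after imbibition, with the gene named first on top of the ratio. Values above 0 mean that the gene named first was higher. Glyma20g22160 is above 0 at 3-HAI (1.06) and below it in dry seeds (-0.81), Glyma15g23400 is above 0 at 12-HAI (0.24) and below it at 6-HAI (-0.63), and the other pairs stay above 0.

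In dry seeds the order of levels was Glyma10g28170, Glyma09g03990, Glyma20g22160, Glyma19g41210, Glyma09g11600, Glyma15g14980, Glyma03g38620 and Glyma15g23400. At 24-HAI it was Glyma20g22160, Glyma10g28170, Glyma15g23400, Glyma09g03990, Glyma15g14980, Glyma19g41210, Glyma09g11600 and Glyma03g38620. Without replicate values it cannot be said which neighbours in these orders differ beyond their spread. By ratio, close neighbours were Glyma15g23400 and Glyma09g03990 with 8.50 and 7.61 FPKM at 24-HAI, Glyma09g11600 and Glyma15g14980 with 2.37 and 2.25 FPKM in dry seeds, and Glyma03g38620 and Glyma15g23400 with 0.281 and 0.262 FPKM there.

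Changes over the 4 sequential intervals were counted with the limit that the study's own calls reach, a ratio of FPKM of at least 2.4, with the higher of the values reaching 1 FPKM. These are counts by size, with no test. The study's own calls also passed a significance filter, and its up-regulated genes were fewer in each interval than those counted here. Between dry seeds and 3-HAI, 4 of the 8 genes passed it upwards, Glyma20g22160, Glyma19g41210, Glyma03g38620 and Glyma15g14980, where 11.5% of the 33358 expressed genes did, and 0 passed it downwards, beside 1.32% of expressed genes. This interval held the most phytochrome genes past the limit, and 3 of the 4 were PHYA genes. With median ratio scaling, quantile normalization or 1 FPKM added, 3 of the 4 passed, the PHYA genes, and Glyma15g14980 did not.

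Fewer genes passed in the later intervals. Between 3-HAI and 6-HAI 0 of the 8 passed in either direction, with 6.01% of expressed genes up and 0.698% down. Between 6-HAI and 12-HAI Glyma15g23400 alone passed, upwards (1 of 8, beside 7.53% of expressed genes), and 0 passed downwards, beside 3.24%. Between 12-HAI and 24-HAI Glyma15g23400 passed again upwards (1 of 8, beside 16.4%) and Glyma19g41210 passed downwards (1 of 8, beside 9.13%), at 0.239 of its 12-HAI value. With 1 FPKM added Glyma15g23400 passed in neither interval, and after quantile normalization it did not pass from 6-HAI to 12-HAI. A single gene of 8 is near what these background shares give.

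In the last interval the 8 genes otherwise moved in 1 direction. Only Glyma15g23400 was higher at 24-HAI than at 12-HAI, whereas 50.8% of expressed genes were. For the 7 others the 24-HAI value was between 0.239 of the 12-HAI value in Glyma19g41210 and 0.817 in Glyma20g22160. Under median ratio scaling, quantile normalization and scaling to equal totals the same 7 genes were the lower ones.

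Over the whole period from dry seeds to 24-HAI, 2 of the 8 passed upwards, Glyma20g22160 with a ratio of 10.1 and Glyma15g23400 with 32.5, beside 38.5% of expressed genes. The PHYB gene Glyma09g03990 passed downwards (1 of 8, beside 21.7%). With 1 FPKM added to both values it no longer passed, and with equal totals at all time points 5 of the 8 passed upwards and 0 downwards. For the other 5 genes the ratio of 24-HAI to dry was 3.39 in Glyma03g38620, which stayed under 1 FPKM at both, 2.16 in Glyma10g28170, 1.72 in Glyma15g14980, 0.656 in Glyma09g11600 and 0.537 in Glyma19g41210. The endpoints alone thus miss the rise and fall of the E3 gene.

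On the log2(FPKM + 1) scale, which understates the change of low genes, the median change of the 8 genes between dry seeds and 3-HAI was 0.82, beside 0.10 over all expressed genes. It was -0.37 beside -0.02 from 3-HAI to 6-HAI, 0.31 beside 0.02 from 6-HAI to 12-HAI, and -0.50 beside 0.02 from 12-HAI to 24-HAI. Between dry seeds and 3-HAI the change of Glyma20g22160 (2.35) was above that of 99.1% of expressed genes, and that of Glyma19g41210 (2.11) was above that of 98.8%. Between 12-HAI and 24-HAI the change of Glyma19g41210 (-1.63) was above that of only 2.89% of them.

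**Figure D4:**
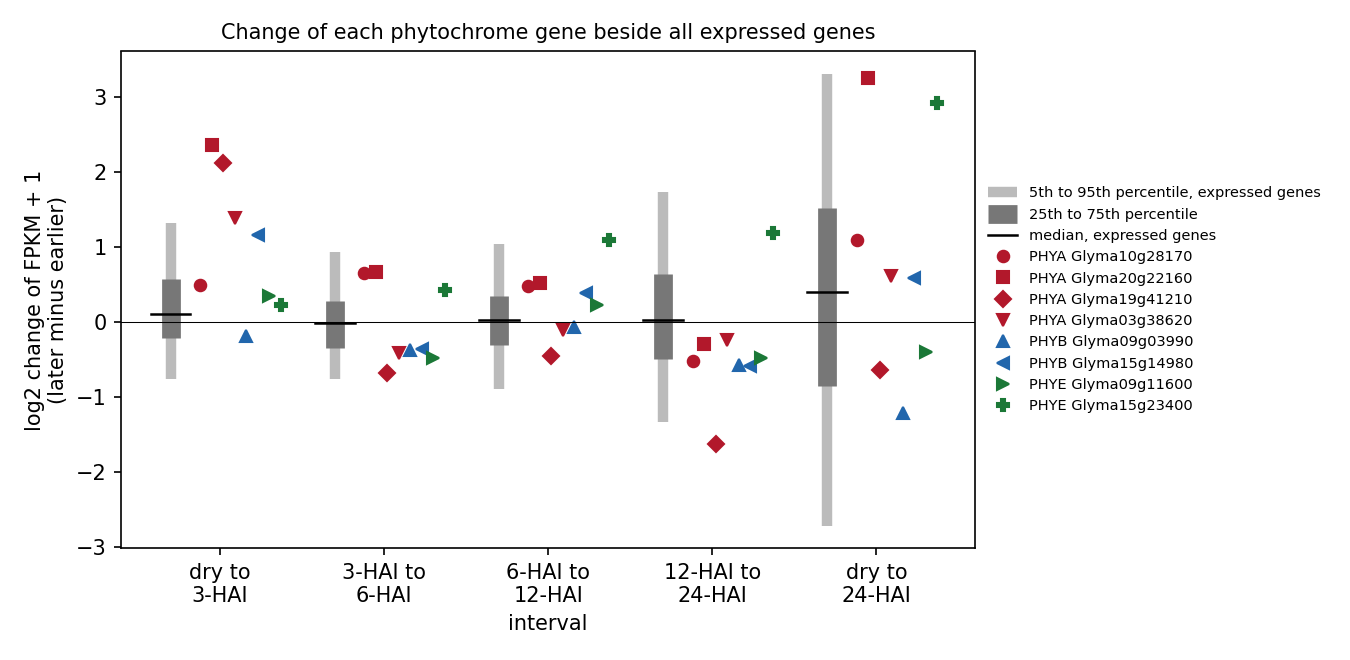
Log2 change of FPKM + 1, later minus earlier, of each phytochrome gene in the 4 sequential intervals and from dry seeds to 24-HAI, beside the spread over 33358 expressed genes (light bar, 5th to 95th percentile; dark bar, 25th to 75th percentile; black line, median). The bars show the spread between genes and not an error. From dry seeds to 3-HAI Glyma20g22160 (2.35), Glyma19g41210 (2.11) and, by little, Glyma03g38620 (1.38) lie above the light bar, and from 12-HAI to 24-HAI Glyma19g41210 (-1.63) lies below it.

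Some of these values depend on how the time points are scaled to each other. The median log2 change of expressed genes from dry seeds to 24-HAI was 0.39 as deposited, 0.05 after median ratio scaling, 0.03 after quantile normalization and 0.98 with equal totals. The 12-HAI maximum of Glyma20g22160 and Glyma10g28170, the 3-HAI maximum of Glyma19g41210 and Glyma03g38620 and the 24-HAI maximum of Glyma15g23400 were kept under all 3 scalings. The maximum of Glyma09g03990 moved to 12-HAI with equal totals (16.1 FPKM, beside 13.6 FPKM in dry seeds), and that of Glyma15g14980 moved to 3-HAI after quantile normalization. The maximum of Glyma09g11600 moved from 3-HAI to dry seeds after quantile normalization and to 12-HAI with equal totals.

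The background counts moved as well. They were taken over all 54154 genes, and a gene under 1 FPKM as deposited can reach that limit after scaling. From dry seeds to 3-HAI 3844 genes were up and 439 down as deposited, 2254 up and 1824 down after median ratio scaling, and by quantile normalization 1713 up and 836 down. From 3-HAI to 6-HAI quantile normalization gave 1314 up and 357 down, beside 2006 and 233 as deposited. From 6-HAI to 12-HAI 2513 were up and 1081 down as deposited, 1704 and 1373 after quantile normalization and 4213 and 496 with equal totals. From 12-HAI to 24-HAI quantile normalization gave 4787 up and 4805 down, beside 5475 and 3044 as deposited. From dry seeds to 24-HAI 12853 were up and 7254 down as deposited, 10927 and 9563 after median ratio scaling, 9128 and 9801 after quantile normalization and 17257 and 4084 with equal totals.

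Genes of 1 type were not in general the closest in profile, although the genes of each PHYA pair had their maximum at the same time point. Likeness was measured as the root mean square difference of log2(FPKM + 1) over the 5 time points after centring each gene on its own mean, so that 0 means the same shape, and is given as a description over values that come from the same libraries. For the E4 gene and Glyma10g28170 the difference was 0.79, and 8.17% of expressed genes were as close to the E4 gene as Glyma10g28170, while 59.6% were as close to Glyma10g28170 as the E4 gene. For Glyma19g41210 and Glyma03g38620 it was 0.69, with 8.78% of expressed genes as close to Glyma19g41210 and 50.8% as close to Glyma03g38620. Among the 8, Glyma10g28170 was the closest to the E4 gene and Glyma03g38620 the closest to the E3 gene. For each of the others the closest of the 8 was a gene of another type. The PHYB genes differed by 0.66, near the middle of all genes (48.7% were as close to Glyma09g03990 and 50.5% to Glyma15g14980), and the PHYE genes by 1.26, where 90.5% were as close to Glyma09g11600 and 63.1% to Glyma15g23400. How near a duplicate ranks thus depends on which gene of the pair is the starting point. The measure also grows with the size of the changes, and adding 1 FPKM shrinks the changes of low genes. A large difference therefore does not mean maxima at different time points.

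The smallest difference between any of the 8 was 0.19, between Glyma15g14980, a PHYB gene, and Glyma03g38620, a PHYA gene. Both were higher at 3-HAI than in dry seeds and lower again at 24-HAI. By ratio the rise to 3-HAI was 2.78 times in Glyma15g14980 and 8.35 times in Glyma03g38620. As deposited, Glyma15g14980 had its maximum at 12-HAI (6.34 FPKM) and Glyma03g38620 at 3-HAI (2.34 FPKM). Adding 1 FPKM brings such low genes closer by this measure. Outside the 8, the gene most like the E4 gene was Glyma06g13280 (0.14), with 0.258 (dry), 9.92 (12-HAI) and 10.1 FPKM (24-HAI). That gene was low in dry seeds, where adding 1 FPKM shrinks its rise, and was highest at 24-HAI, unlike the E4 gene. The gene most like the E3 gene was Glyma17g12601 (0.11), with 1.85 (dry), 9.46 (3-HAI) and 0.835 FPKM (24-HAI). For Glyma10g28170 it was Glyma01g04500 (0.06), for Glyma03g38620 Glyma19g30940 (0.04), for Glyma09g03990 Glyma04g43580 (0.03), for Glyma15g14980 Glyma12g16520 (0.03), for Glyma09g11600 Glyma17g02830 (0.03) and for Glyma15g23400 Glyma15g05290 (0.06). Glyma04g43580 was close to Glyma09g03990 in level as well, with 7.61 FPKM at 24-HAI, against 19.8 FPKM in dry seeds.

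The order of the 5 time points itself was shared with more expressed genes for some members than for others. A decline at every step, as in Glyma09g03990, was shared by 13.8% of expressed genes, and a rise at every step, as in Glyma15g23400, by 18.3%. The order of the E3 gene (3-HAI, 6-HAI, 12-HAI, dry, 24-HAI, from high to low) was shared by 3.02%, that of the E4 gene by 2.72% and that of Glyma10g28170 by 1.06%. For Glyma03g38620 the share was 1.98%, for Glyma15g14980 0.687% and for Glyma09g11600 0.294%. The order of Glyma10g28170 rests on 55.3 FPKM at 6-HAI beside 53.5 FPKM at 24-HAI. These were 56.5 and 65.7 FPKM after quantile normalization and 59.2 and 66.5 FPKM with equal totals, the other way round.

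In Arabidopsis seeds, active phytochrome leads to more gibberellin and less abscisic acid (ABA). Soybean ABA genes that the study names by identifier were set beside the phytochromes as a list of 8, comprising the ABI3 genes, the AIP2 genes (ubiquitin ligases that act on ABI3), CYP707A2 and CYP707A1 (ABA hydroxylases), an ABA receptor gene (PYL) and the phosphatase gene HAI3. By the same limit, 1 of the 8 ABA genes was up (beside 11.5% of expressed genes) and 0 down (1.32%) from dry seeds to 3-HAI. From 3-HAI to 6-HAI 0 were up (6.01%) and 0 down (0.698%), and from 6-HAI to 12-HAI 1 was up (7.53%) and 1 down (3.24%). From 12-HAI to 24-HAI 1 was up (16.4%) and 4 were down (9.13%), and from dry seeds to 24-HAI 1 was up (38.5%) and 5 were down (21.7%). The calls of the ABA genes lay mostly in the last interval and downwards, as counts with no test. The 4 down there were the ABI3 genes, CYP707A2 (Glyma09g41960) and HAI3, and the 1 up was CYP707A1 (Glyma16g20490). From 12-HAI to 24-HAI CYP707A2 went from 31.5 to 2.59 FPKM and CYP707A1 from 3.04 to 14.2 FPKM, although the study places both in ABA breakdown. The list thus mixes genes of different roles. Its counts give no direction of ABA action, which was not tested. The calls of the phytochromes lay mostly in the interval from dry seeds to 3-HAI and upwards. Several of the ABA genes are named in the study for changes by 24-HAI in these same data. Their late pattern thus follows in part from how the list was chosen, and the contrast is a description only.

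HAI3 (Glyma01g43460) had 295 FPKM (dry), 139 (3-HAI), 87.1 (6-HAI), 29.5 (12-HAI) and 2.43 FPKM (24-HAI), lower at each step. The PYL gene Glyma16g02910 had 58.4 (dry), 81.3 (3-HAI), 56.9 (6-HAI), 31.2 (12-HAI) and 16.9 FPKM (24-HAI), highest at 3-HAI like the E3 gene. The AIP2 gene Glyma17g33631 was the one up by 3-HAI, with 9.56 (dry), 23.2 (3-HAI), 24.6 (6-HAI), 18.9 (12-HAI) and 21.2 FPKM (24-HAI). These values stand beside those of the phytochromes, and no relation between them was tested.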

How the data were processed

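Paired-end RNA-Seq libraries from soybean embryonic axes were trimmed and mapped to version 1.1 of the G. max genome by the authors, and their processing notes name Trimmomatic 0.30, TopHat2 2.0.9 and Bowtie2 2.1.0. The deposited FPKM were estimated by the authors with Cufflinks, as 1 value per gene and time point from both replicates. How replicates were combined is not given in the sources used here. The study gives mapped reads per stage, but the values hold no read count per gene, so no counting interval is given. Columns belonging to no time point numbered 0.

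Of 54801 entries, 54154 genes remained after taking the entry with the higher maximum for 647 genes listed on both strands. None of the 8 phytochrome genes was among these (0). Ratios were taken without a pseudocount, and log2 changes and log2 pair ratios with 1 FPKM added. Python 3.11.15, numpy 2.4.6, pandas 2.3.3 and matplotlib 3.10.9 were used. The code for the limits was run on simulated data with planted changes well past the limit. That run checks the code and not how the limit behaves at low levels or with replicate spread. The 8 genes, the hormone list and the likeness rule (the closest gene per member) were chosen with earlier results of these data known. A list of light signalling genes from the reference table was planned and not used, because 0 identifiers matched. The hormone list was planned with 2 more genes, left out because no source used here annotates them. Alternatives were 0.1 or 1 FPKM added, no minimum level, a ratio limit of 2, median ratio scaling, quantile normalization and equal totals.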

Additional observations from a re-analysis of the deposited data

How the results depend on the processing

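The values are single numbers per time point made from 2 replicates, with no spread, and values under 1 FPKM, as in Glyma03g38620 and Glyma15g23400, are the least certain. No paired analysis was possible because the replicates are not separate in the values used, and for the same reason no replicate could be left out. Of 70 recomputed counts of phytochrome genes past the limit, 60 stayed within 1.5 times the reported count and 10 did not. Those that stayed include counts of 0 that were again 0, which say little about stability. The 4 genes up from dry seeds to 3-HAI were 3 with 1 FPKM added, median ratio scaling or quantile normalization, and 4 under the other alternatives. Without the minimum level, 10930 genes of the table were up and 2152 down from dry seeds to 3-HAI, beside 3844 and 439. With equal totals 1 gene was up from 3-HAI to 6-HAI, 5 were up and 0 down from dry seeds to 24-HAI. With 1 FPKM added, 0 were up from 6-HAI to 12-HAI, 0 up from 12-HAI to 24-HAI and 0 down from dry seeds to 24-HAI. Quantile normalization gave 0 up from 6-HAI to 12-HAI, 2 down from 12-HAI to 24-HAI (Glyma19g41210 and Glyma09g11600) and 3 down from dry seeds to 24-HAI (these and Glyma09g03990), and median ratio scaling gave 2 down over the same period. The causes were not tested. Of 32 recomputed log2 changes of single genes from dry seeds to 24-HAI, 22 kept their direction with a fold, not logged, within 1.5 times. The change of Glyma03g38620 was 0.61 as reported and -0.28 after quantile normalization, that of Glyma15g14980 was 0.59 and -0.24, and that of Glyma09g11600 was -0.40 as reported and 0.12 with equal totals. Of 20 pair ratios recomputed with 0.1 FPKM added, 17 stayed within 1.5 times. The ratios of summed types under other scalings were added after seeing the data.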
